A study of Mus musculus with 24 samples.

Results

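The cytochrome P450 family 2 (Cyp2) genes of mouse liver are described here, in RNA sequencing libraries from mice that overexpressed a construct labelled L2 delta13 (L2d13) and from wild-type (WT) mice. Members were all protein-coding genes of the deposited table whose symbol was Cyp2 followed by a letter, with Cyp2c70 not analysed here. This gave 46 of the 18171 genes, in 14 subfamilies named by that letter. The rule used names only and no measured value, but the family was chosen with earlier results of these data known.

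Cytochromes P450 are heme enzymes of the endoplasmic reticulum that insert oxygen into steroids, fatty acids, vitamins, drugs and toxins, with electrons passed on by the reductase Por and by cytochrome b5. In mouse liver many family 2 genes lie in tandem arrays of close relatives. Several are found mainly in hepatocytes around the central vein, several differ between the sexes under growth hormone control, and several are induced by foreign compounds through the nuclear receptors CAR (Nr1i3) and PXR (Nr1i2).

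The study compared whole liver of C57BL/6 mice of 2 genotypes, sequenced on the BGISEQ-500 platform, with 12 libraries of each. A digit in the sample names, 2 or 4, splits each genotype further without any label that explains it, giving 4 groups of 6 libraries, set 2 WT, set 2 L2d13, set 4 WT and set 4 L2d13. The promoter of the construct, the number of founder lines, and the age and sex of the mice are not given in the sources used here. Whether each library came from its own animal is likewise not given, and the p-values reflect variation among libraries that may be technical.

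Values were the FPKM deposited by the authors (fragments per kilobase of transcript, scaled to the fragments mapped). Their sum per library was 550260 to 722980, and read totals were not used, so the depth is unknown. L2 is not spelled out in the labels. The gene Loxl2, a splice form of which goes by that name elsewhere, was at 0.68 ± 0.254 FPKM in WT and 1.5 ± 0.384 in L2d13 (SD, n = 12), and the predicted gene Gm21451 was at 0.24 ± 0.339 and 172 ± 69.3. All 8 hepatocyte markers were measured in every library, Alb at 11019 FPKM or more. Their sum was lowest in set 2 L2d13 replicate 3, at 31229 against at least 47393 in the other 3 groups. In all 24 libraries the Y-linked gene Ddx3y was at 8.13 to 15.03 FPKM and Eif2s3y at 20.94 to 48.65. Kdm5d and Uty, also Y-linked, were at 1.81 to 3.02 and 2.2 to 5.4. Every library thus held RNA of male liver, though no label gives the sex. Set 2 L2d13 replicate 3 and set 2 WT replicate 6 stood apart, with the highest summed FPKM of 6 cholangiocyte markers (123 and 74.5, against 11.5 to 35.9 elsewhere) and of 6 stellate cell markers (392 and 218). The stellate sum had a median of 175 in set 2 L2d13 and 131 in set 2 WT. Summed FPKM of 6 sinusoidal endothelium markers was 93.6 to 187 in set 2 L2d13 (median 104) and 36.1 to 106 in set 2 WT (71.0). Set 2 L2d13 replicate 1 alone had 93.3 FPKM of 5 exocrine pancreas markers, against at most 8.51 elsewhere. In set 4, 6 Kupffer cell markers summed to 32.9 to 126 in L2d13 (median 64.2) and 17.7 to 78.3 in WT (27.6). The part of these shifts in the results given here was not tested. In bulk tissue, fewer cells of a type and less RNA per cell cannot be told apart.

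Differences between groups were tested with limma on log2(FPKM + 1) over the 10532 genes with at least 1 FPKM in at least 6 libraries. A gene was called where the p adjusted by the Benjamini-Hochberg method over all those genes was under 0.05. Differences below are on that log2 scale, L2d13 minus WT unless stated, with the standard error. Of the 46 members, 31 passed the filter on low values: all 4 of subfamily 2A, 2 of 5 in 2B, 11 of 14 in 2C, 7 of 8 in 2D, 3 of 6 in 2J, and Cyp2e1, Cyp2f2, Cyp2r1 and Cyp2u1. The other 15 did not pass, and their levels are given at the end.

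Over both sets together, 9 of the 31 tested members were lower in L2d13 and 0 were higher, the latter also at an unadjusted p under 0.05. Among all tested genes, 4.86% were called lower and 25.9% higher, while 29.0% of the tested members were called lower. The 9 were Cyp2a5 and Cyp2r1, the Cyp2c genes Cyp2c23, Cyp2c29, Cyp2c50 and Cyp2c54, and the Cyp2d genes Cyp2d10, Cyp2d26 and Cyp2d40. The median difference was -0.17 for the members and 0.12 for all genes. That upward median of all genes came with 2730 genes called higher and 512 lower. With median-of-ratios scaling of the libraries the median of all genes was 0.00, 1128 genes were higher and 1162 lower, and 12 members were lower and 0 higher. The members' median lay 0.29 below that of all genes as deposited and 0.32 below it with that scaling.

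In set 2 alone, 6 members fell (Cyp2a5, Cyp2c23, Cyp2c29, Cyp2c50, Cyp2c54 and Cyp2r1) and 2 rose (Cyp2c40 and Cyp2c69), where 2.13% of all genes were lower and 13.0% higher. In set 4, 2 members fell (Cyp2c23 and Cyp2d40) and Cyp2e1 rose, where 2.97% of all genes were lower and 10.3% higher. With median-of-ratios scaling, all genes split into 304 higher and 389 lower in set 2 and into 617 and 626 in set 4, in place of 1364 and 224, and 1090 and 313. A test of the difference between the 2 genotype effects called 0 members in either direction (limma), with 0.0285% of all genes called higher and 0.123% lower in set 4 than in set 2. At an unadjusted p under 0.05 it gave 6 members with a higher and 3 with a lower effect in set 4. All genes were not counted at that unadjusted threshold, so the 6 and 3 cannot be set against the shares above. A call in one set and not in the other was thus not shown to be a difference between the sets.

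**Figure D1:**
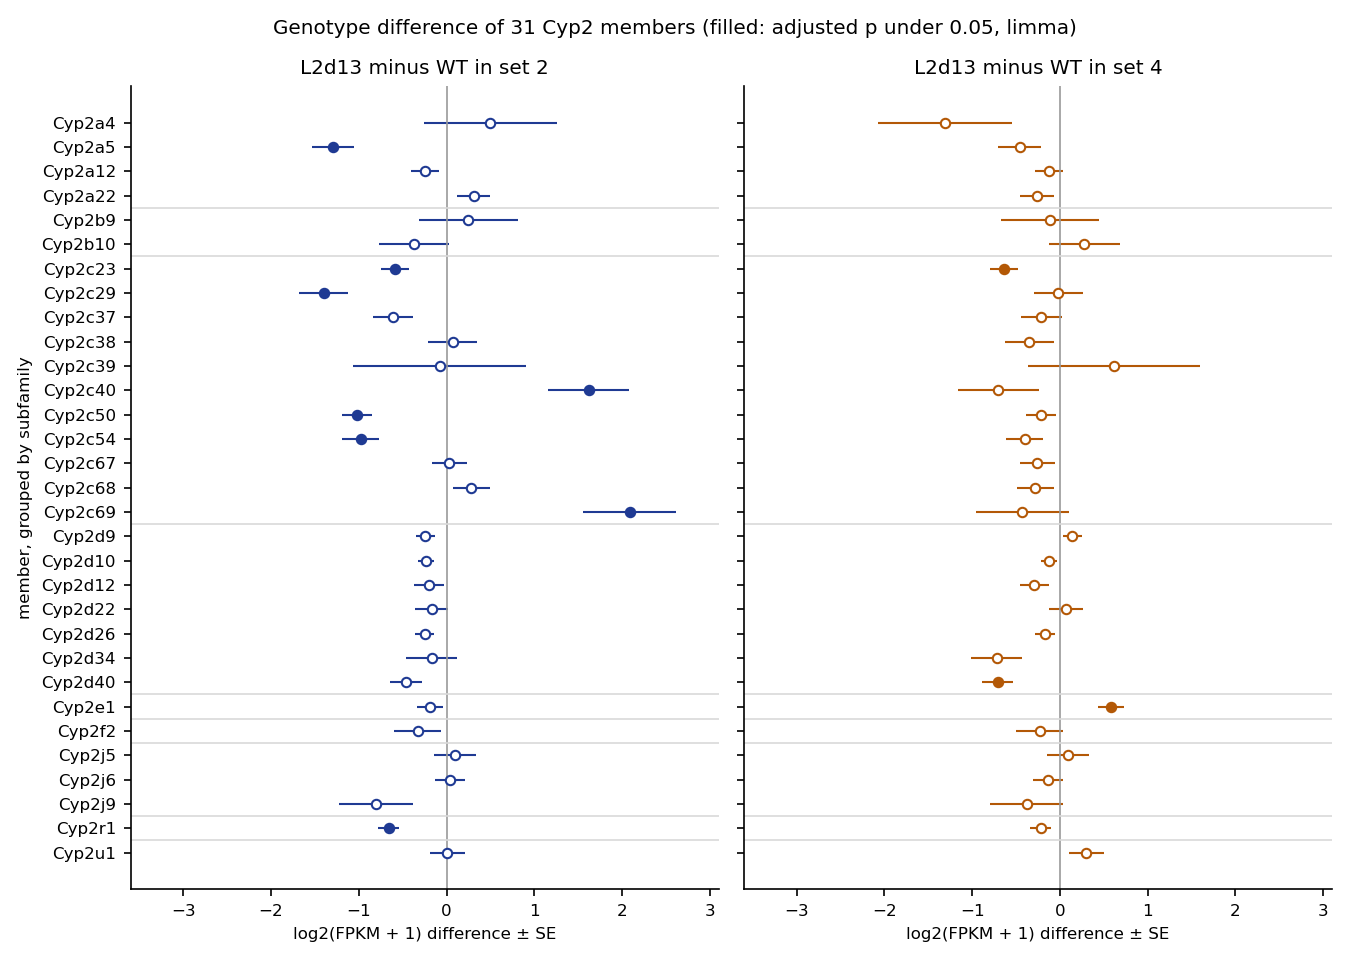
Genotype difference of each of the 31 tested Cyp2 members, in log2(FPKM + 1) with its standard error, in set 2 (left) and set 4 (right), 6 libraries against 6 in each. Filled points passed an adjusted p of 0.05 (limma). In set 2 the filled points are 6 to the left and 2 to the right of 0, and in set 4 they are 2 to the left and 1 to the right.

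Subfamily 2E has 1 gene, Cyp2e1 (chromosome 7, 140763739 to 140774987, plus strand; positions here are GENCODE M21 on GRCm38), which oxidises ethanol, acetone and acetaminophen in pericentral hepatocytes. It alone made up 46.0% of the summed FPKM of all 46 members. Its FPKM was 3384 to 5986 (median 5081) in set 2 WT, 3489.5 to 4882 (4238) in set 2 L2d13, 3024 to 5330.2 (3927) in set 4 WT and 4566 to 6698 (6079) in set 4 L2d13. In set 4 the highest library was in L2d13 and the lowest in WT, with overlap. Cyp2e1 rose in set 4 L2d13 by 0.58 ± 0.15 (SE, adjusted p = 0.0152), in 6 of 6 libraries relative to the WT mean, and the difference in set 2 was -0.19 ± 0.15 (SE, adjusted p = 0.417). The effect in set 4 minus that in set 2 was 0.77 ± 0.22, with an unadjusted p of 0.00155 and an adjusted p of 0.25 (limma). The call in set 4 did not hold with median-of-ratios scaling (adjusted p = 0.0756), with no filter on low values (0.0574), or without the 6 libraries of higher FPKM per fragment, which leaves 2 WT libraries in set 4 (log2 difference 0.31, adjusted p = 0.308). Over both sets Cyp2e1 differed by 0.19 ± 0.13 (SE, adjusted p = 0.277), and with quantile normalization by 0.52 ± 0.14, which passed (0.00992). Its difference between the set effects passed with array weights (0.77 ± 0.18, adjusted p = 0.0186, limma). Array weights called 71 of all genes higher and 270 lower there, in place of 3 and 13.

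The 4 genes of subfamily 2A lie on chromosome 7. Cyp2a5 hydroxylates coumarin and nicotine, Cyp2a4 hydroxylates steroids and is higher in female liver, and Cyp2a12 acts on steroids and bile acids. Cyp2a4 and Cyp2a5 are near copies: 36.1% of the 50-base words of the longest Cyp2a4 transcript also occur in Cyp2a5, so fragments could be counted for either. Their RefSeq promoters (GRCm38.p6, 250 bases before to 50 after the start, both on the plus strand) were identical at 294 aligned positions, with 5 mismatches and 2 gaps. They are shown because genes with such different levels have nearly the same proximal promoter. Capitals mark the bases without an identical partner in the alignment.
Cyp2a4 (chr7:26306942-26307241): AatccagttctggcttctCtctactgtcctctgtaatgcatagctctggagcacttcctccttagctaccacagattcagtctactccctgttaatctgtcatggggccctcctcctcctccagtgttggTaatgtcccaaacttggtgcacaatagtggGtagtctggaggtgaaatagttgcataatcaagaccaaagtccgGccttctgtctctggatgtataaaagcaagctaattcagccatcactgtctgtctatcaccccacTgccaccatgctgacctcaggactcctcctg
Cyp2a5 (chr7:26835089-26835388): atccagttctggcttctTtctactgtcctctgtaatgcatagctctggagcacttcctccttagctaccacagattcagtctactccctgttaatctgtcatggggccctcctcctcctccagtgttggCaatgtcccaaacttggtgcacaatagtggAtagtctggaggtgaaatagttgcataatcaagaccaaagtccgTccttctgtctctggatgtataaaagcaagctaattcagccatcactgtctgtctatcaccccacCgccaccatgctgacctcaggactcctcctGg

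FPKM of Cyp2a5 was 268 to 439 (median 350.2) in set 2 WT, 87.0 to 230.2 (143) in set 2 L2d13, 146 to 273 (232) in set 4 WT and 87.8 to 248 (156) in set 4 L2d13. The set 2 groups did not overlap, and every set 2 L2d13 library lay below the lowest set 2 WT library. Cyp2a5 fell by 1.29 ± 0.24 in set 2 (adjusted p = 0.00138, a 2.45-fold lower level) and by 0.88 ± 0.19 over both sets (adjusted p = 0.00121). Its difference in set 4 was -0.46 ± 0.24 (SE, adjusted p = 0.21), with overlapping groups.

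Cyp2a4 was uneven within groups. Its FPKM was 1.4 to 107 (median 5.99) in set 2 WT, 3.26 to 57.5 (13.4) in set 2 L2d13, 0.15 to 19.2 (0.9) in set 4 WT and 0 to 0.44 (0.07) in set 4 L2d13. It passed 10 FPKM in 6 libraries, 3 of set 2 L2d13, 2 of set 2 WT and 1 of set 4 WT, with 107 in set 2 WT replicate 2. The genotype differences were 0.50 ± 0.76 (SE, adjusted p = 0.697) in set 2 and -1.31 ± 0.76 (SE, adjusted p = 0.258) in set 4. With 0.1 in place of 1 added to the FPKM, the set 4 difference passed, at -2.91 ± 0.96 (SE, adjusted p = 0.0439, limma). The set 4 result of this low gene thus depends on the value added. Summed over Cyp2a4 and Cyp2a5, FPKM was 378 ± 105 in set 2 WT, 171 ± 56.8 in set 2 L2d13, 219 ± 47.7 in set 4 WT and 162 ± 61.9 in set 4 L2d13 (SD, n = 6). The sum lessens the effect of fragments exchanged between the pair but does not remove it, since their longest transcripts differ in length (1738 and 2013 bases).

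Cyp2a12 carried the largest share of the subfamily over the 24 libraries, 53.6%, but 40.8% in set 2 WT, where Cyp2a5 held more. Its FPKM was 172 to 306 (median 261) in set 2 WT, 115 to 293 (232) in set 2 L2d13, 245 to 291 (278) in set 4 WT and 218 to 281 (255) in set 4 L2d13, and its differences of -0.25 ± 0.16 in set 2 and -0.12 ± 0.16 in set 4 did not pass (adjusted p = 0.323 and 0.673). Cyp2a22 was low, at 2.69 to 5.14 (median 3.06) in set 2 WT, 2.5 to 9.51 (4.17) in set 2 L2d13, 2.64 to 3.75 (3.27) in set 4 WT and 1.89 to 2.94 (2.65) in set 4 L2d13, with 0.31 ± 0.19 and -0.26 ± 0.19 (adjusted p = 0.261 and 0.361, limma). Within the subfamily the share of Cyp2a5 was 55.4% ± 7.48 in set 2 WT and 37.8% ± 13.5 in set 2 L2d13, and 42.7% ± 7.18 and 37.4% ± 8.04 in set 4 (SD, n = 6).

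The 14 Cyp2c genes lie on chromosome 19, and many of them oxidise arachidonic and linoleic acid. The 4 neighbours on the minus strand, Cyp2c67, Cyp2c68, Cyp2c40 (chromosome 19, 39767071 to 39812814, minus strand) and Cyp2c69 (chromosome 19, 39842814 to 39886799, minus strand), are close copies. Of the 50-base words of their longest transcripts, 52.8%, 43.3%, 72.1% and 54.8%, respectively, also occur in another gene. Their levels relative to each other therefore depend on how the authors' counting divided shared fragments. Their promoters carry a shared block of sequence, which is shown because Cyp2c40 and Cyp2c69 rose in set 2 L2d13 while Cyp2c67 and Cyp2c68 did not pass. Each window runs from 10 bases before the start of CAAAGTCCA to 95 bases after it, or to the end of the promoter entry, on the minus strand of GRCm38.p6 (RefSeq). Capitals mark, in order, CAAAGTCCA, a core bound by HNF4A, then TTGCNNAA, known for C/EBP proteins. The next capitals mark ATTGAT, known for HNF6. The last are TATAAA, the letters of a TATA box. From the annotated RefSeq start, TATAAA began at 40 in Cyp2c40 and 10 in Cyp2c69, so after the start, and at -40 in Cyp2c67. ATTGAT also lay after the start in Cyp2c40, at 22. Whether these letters work as a TATA box was not tested. Motifs were searched on both strands.
Cyp2c40 (chr19:39812765-39812869): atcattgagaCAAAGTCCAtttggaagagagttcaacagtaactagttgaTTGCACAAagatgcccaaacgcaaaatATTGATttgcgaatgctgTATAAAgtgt
Cyp2c69 (chr19:39886749-39886854): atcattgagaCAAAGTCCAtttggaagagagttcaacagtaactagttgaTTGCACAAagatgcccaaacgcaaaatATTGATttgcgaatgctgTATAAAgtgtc
Cyp2c68 (chr19:39741083-39741188): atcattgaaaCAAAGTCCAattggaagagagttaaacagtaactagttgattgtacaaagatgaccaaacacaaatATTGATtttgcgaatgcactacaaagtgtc
Cyp2c67 (chr19:39649072-39649177): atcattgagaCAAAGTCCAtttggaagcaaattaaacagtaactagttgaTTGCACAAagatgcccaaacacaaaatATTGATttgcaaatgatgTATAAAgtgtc

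The Cyp2c40 and Cyp2c69 windows were identical at all 105 bases they share, and the Cyp2c69 and Cyp2c67 windows at 99 positions with 7 mismatches. Cyp2c68 had no match to TTGCNNAA or TATAAA in its window. CAAAGTCCA was in 5 of the 41 promoter entries of 39 members (12.2%, with Cyp2c65 as the fifth) and in 0.475% of all 32851 entries, ATTGAT in 14.6% and 7.54%, TTGCNNAA in 31.7% and 10.8%, and TATAAA in 48.8% and 13.6%. Another 5 motifs were searched: CAAAGTTCA was in 0% of member entries and 0.39% of all, AGGTCA in 29.3% and 16.3%, GTTAAT in 14.6% and 7.1%, TTCNNNGAA in 2.44% and 8.3%, and TGTTTAC in 12.2% and 3.65%. These shares count letters in near copies of one sequence, and describe no binding.

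Cyp2c69 was at 1.73 to 8.3 FPKM (median 4.05) in set 2 WT, 5.13 to 67.1 (25.8) in set 2 L2d13, 1.26 to 12.7 (2.77) in set 4 WT and 0.96 to 5.82 (1.48) in set 4 L2d13. Cyp2c69 rose in set 2 L2d13 by 2.09 ± 0.53 (SE, adjusted p = 0.0111), in 6 of 6 libraries, and its difference in set 4 was -0.43 ± 0.53 (SE, adjusted p = 0.624). Cyp2c40, which hydroxylates arachidonic acid, was at 5.56 to 18.7 FPKM (median 14.5) in set 2 WT, 12.2 to 85.1 (53.4) in set 2 L2d13, 2.41 to 14.2 (5.91) in set 4 WT and 1.25 to 7.88 (2.45) in set 4 L2d13. Cyp2c40 rose in set 2 L2d13 by 1.62 ± 0.46 (SE, adjusted p = 0.0208), in 5 of 6 libraries, and its difference in set 4 was -0.70 ± 0.46 (SE, adjusted p = 0.325). Both genes are female-biased in mouse liver. The same 4 set 2 L2d13 libraries, replicates 4, 1, 3 and 5, were highest for both, and the set 2 groups overlapped. The Cyp2c40 call was lost without set 2 L2d13 replicate 4 (adjusted p = 0.0539), without set 2 WT replicate 4 (0.0551), and with median-of-ratios scaling (0.0545). The effects in set 4 minus those in set 2 were -2.52 ± 0.76 for Cyp2c69 and -2.32 ± 0.65 for Cyp2c40, at adjusted p of 0.3 and 0.25 (limma, unadjusted 0.00276 and 0.0016).

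Cux2, a transcription factor higher in female liver and chosen after its values were seen, reached 1 FPKM in 3 libraries: 2.83 in set 2 L2d13 replicate 3, 1.81 in set 2 L2d13 replicate 4 and 1.7 in set 4 WT replicate 9. It was at most 0.97 in the other 21. Cyp2c69 was at 32.5 and 67.1 FPKM in those 2 L2d13 libraries and at 12.7, the highest of its group, in set 4 WT replicate 9. It was also high in set 2 L2d13 replicates 1 (46.3) and 5 (19.1), where Cux2 was at most 0.97. The part of Cux2 was not tested.

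The more abundant copies did not pass. Cyp2c68 was at 67.3 to 142 FPKM (median 118) in set 2 WT, 94.0 to 179 (145) in set 2 L2d13, 52.7 to 113 (82.1) in set 4 WT and 52.4 to 87.2 (65.9) in set 4 L2d13, with 0.28 ± 0.21 (SE, adjusted p = 0.399) in set 2 and -0.28 ± 0.21 (SE, adjusted p = 0.397) in set 4. Cyp2c67 was at 106 to 176 (median 138) in set 2 WT, 119 to 202 (134) in set 2 L2d13, 93.2 to 209 (132) in set 4 WT and 75.1 to 148 (123) in set 4 L2d13, with 0.03 ± 0.20 (SE, adjusted p = 0.943) in set 2 and -0.26 ± 0.20 (SE, adjusted p = 0.387) in set 4. Summed over the 4 copies, FPKM was 271 ± 51.0 in set 2 WT, 357 ± 101 in set 2 L2d13, 234 ± 54.2 in set 4 WT and 187 ± 40.9 in set 4 L2d13 (SD, n = 6). The sum thus moved the same way as Cyp2c40 and Cyp2c69 in set 2 by group mean, with overlap between libraries.

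Cyp2c29, Cyp2c50, Cyp2c37, Cyp2c54 and Cyp2c23 had the highest mean Cyp2c levels over the 24 libraries, but in set 2 L2d13 Cyp2c67 and Cyp2c68 (means 143 and 137 FPKM) lay above Cyp2c23 (134). Cyp2c29 (chromosome 19, 39269405 to 39330713, plus strand), an arachidonic acid epoxygenase induced through CAR, was the most abundant of them and held 26.8% of Cyp2c FPKM over the 24 libraries, except that in set 2 L2d13 Cyp2c50 had the higher mean share (20% against 19.6%). Its FPKM was 276 to 1237 (median 827) in set 2 WT, 188 to 437 (272) in set 2 L2d13, 396 to 915 (460.3) in set 4 WT and 455 to 702 (513) in set 4 L2d13. In set 2, 5 of the 6 WT libraries lay above every L2d13 library, and in set 4 the L2d13 range lay inside the WT range. Cyp2c29 fell in set 2 by 1.40 ± 0.28 (adjusted p = 0.0023, 2.64-fold) and differed by -0.02 ± 0.28 (SE, adjusted p = 0.974) in set 4. Over both sets it fell by 0.71 ± 0.24 (adjusted p = 0.0271), a call lost without set 2 WT replicate 1 (0.0504), with no filter (0.0505) and with scaling to TPM (0.0623). The difference between the set effects was 1.38 ± 0.40 (adjusted p = 0.273), and it passed without set 2 WT replicate 6 (0.0288). That library held its group's lowest Cyp2c29, at 276 FPKM against 705 to 1237 in the other 5. Leaving it out widens the set 2 difference.

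Cyp2c50 (chromosome 19, 40089688 to 40113950, plus strand), Cyp2c54 (chromosome 19, 40037940 to 40073827, minus strand) and Cyp2c37 are neighbouring pericentral genes whose enzymes also act on arachidonic and linoleic acid. Cyp2c50 was at 446 to 684 FPKM (median 581) in set 2 WT, 231 to 425.7 (271) in set 2 L2d13, 365 to 672 (552) in set 4 WT and 352 to 566 (449) in set 4 L2d13, and its set 2 groups did not overlap. Cyp2c50 fell in set 2 by 1.02 ± 0.17 (adjusted p = 0.000373, 2.02-fold) and over both sets by 0.62 ± 0.14 (0.00189), with -0.22 ± 0.17 (SE, adjusted p = 0.397) in set 4. Cyp2c54 was at 231 to 535 FPKM (median 256) in set 2 WT, 121 to 196 (141) in set 2 L2d13, 186 to 397 (302) in set 4 WT and 139 to 309.9 (219) in set 4 L2d13, again without overlap in set 2. Cyp2c54 fell in set 2 by 0.98 ± 0.21 (adjusted p = 0.00305, 1.97-fold) and over both sets by 0.69 ± 0.15 (0.00171), with -0.40 ± 0.21 (SE, adjusted p = 0.196) in set 4. Cyp2c37 was at 180.2 to 623 FPKM (median 264) in set 2 WT, 160.4 to 205 (192) in set 2 L2d13, 197 to 422 (306) in set 4 WT and 200.2 to 366 (257) in set 4 L2d13, with -0.61 ± 0.23 (SE, adjusted p = 0.0733) in set 2, -0.21 ± 0.23 (SE, adjusted p = 0.578) in set 4 and -0.41 ± 0.16 (SE, adjusted p = 0.0603) over both, none of which passed. Over both sets Cyp2c37 passed without any one of 4 libraries, L2d13 replicate 7 and WT replicates 8 and 11 of set 4 and WT replicate 3 of set 2 (adjusted p 0.0298 to 0.0341), and in set 2 without set 2 WT replicate 3 (0.0315). All but set 4 WT replicate 8 of these libraries held the highest L2d13 or lowest WT value of Cyp2c37 in their group. All 6 set 2 L2d13 libraries were below the set 2 WT mean for each of the 3 genes. These genes also share words of transcript sequence, 30.7% for Cyp2c50, 25.7% for Cyp2c54 and 30.1% for Cyp2c37. Their sum was 1195 ± 336 in set 2 WT, 627 ± 111 in set 2 L2d13, 1132 ± 256 in set 4 WT and 938 ± 174 in set 4 L2d13 (SD, n = 6).

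Cyp2c23 (chromosome 19, 44005022 to 44029208, minus strand), an arachidonic acid epoxygenase apart from the main array and without shared words, fell in both sets. It was at 143 to 239.8 FPKM (median 212) in set 2 WT, 108 to 195 (125) in set 2 L2d13, 166 to 267 (208) in set 4 WT and 107 to 174 (129) in set 4 L2d13. Cyp2c23 fell by 0.59 ± 0.16 in set 2 (adjusted p = 0.0161), by 0.64 ± 0.16 in set 4 (0.0109) and by 0.61 ± 0.11 over both (0.000246), in 12 of 12 libraries. The difference between the set effects was -0.05 ± 0.23 (adjusted p = 0.97).

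Cyp2c39, a retinoic acid hydroxylase, was at 18.7 to 103 FPKM in 5 libraries and at most 4.91 in the other 19. The 5 were set 2 WT replicate 3, set 4 WT replicates 8 and 11, and set 4 L2d13 replicates 10 and 11, so both genotypes held such libraries. By group Cyp2c39 was at 0.66 to 103 FPKM (median 1.1) in set 2 WT, 1.38 to 4.91 (2.92) in set 2 L2d13, 0.72 to 45.7 (1.58) in set 4 WT and 1.68 to 53.2 (2.84) in set 4 L2d13, with a difference of -0.08 ± 0.98 (SE, adjusted p = 0.969) in set 2 and 0.62 ± 0.98 (SE, adjusted p = 0.708) in set 4. Its neighbour Cyp2c38, which holds 11% of the words of Cyp2c39, was at 17.0 to 39.7 FPKM (median 27.9) in set 2 WT, 12.8 to 48.0 (33.9) in set 2 L2d13, 19.5 to 38.7 (26.7) in set 4 WT and 11.9 to 31.7 (22.7) in set 4 L2d13, with 0.07 ± 0.28 (SE, adjusted p = 0.901) in set 2 and -0.35 ± 0.28 (SE, adjusted p = 0.41) in set 4.

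**Figure D2:**
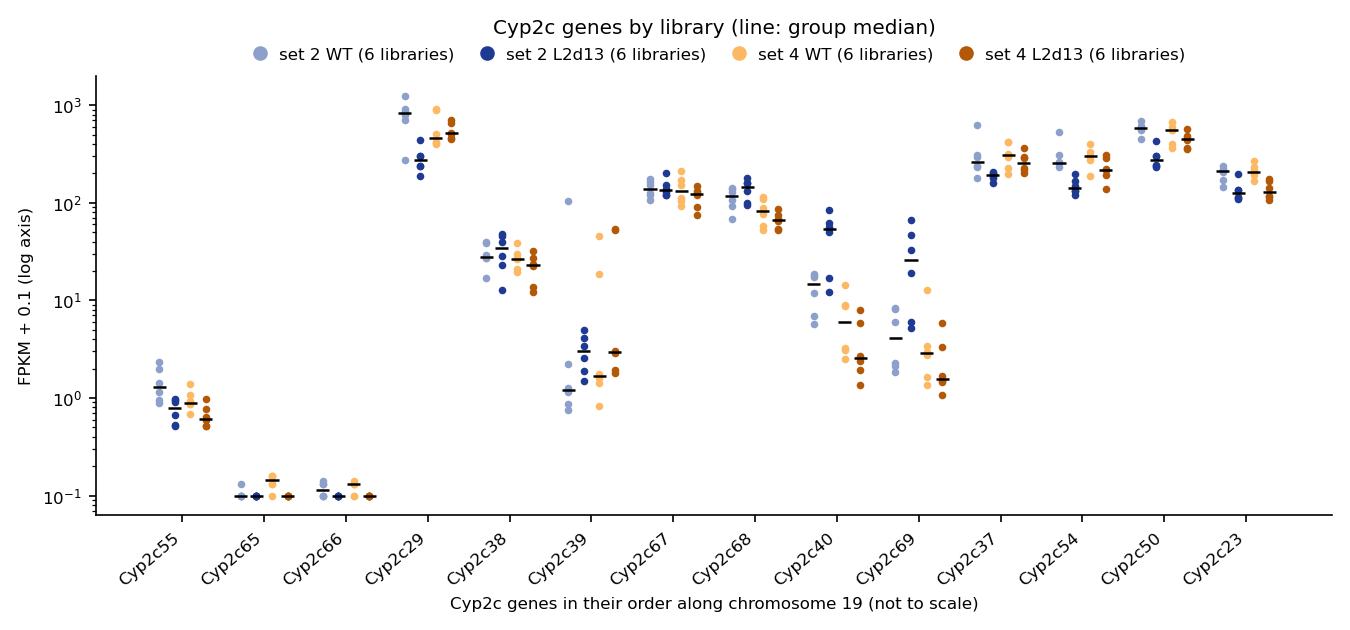
FPKM + 0.1 on a log axis for the 14 Cyp2c genes in their order along chromosome 19, with 1 point per library and a line at the median of each group of 6. Dark blue points (set 2 L2d13) lie low for Cyp2c29, Cyp2c37, Cyp2c54 and Cyp2c50 and high for Cyp2c40 and Cyp2c69, which stand between those genes on the chromosome.

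Summed over all 14 genes, Cyp2c FPKM was 2512 ± 283 in set 2 WT, 1440.0 ± 258 in set 2 L2d13, 2206 ± 404 in set 4 WT and 1853 ± 198 in set 4 L2d13 (SD, n = 6). This is 42.7% lower in set 2 L2d13, without overlap, and 16.0% lower in set 4. In set 2 the subfamily had members called in both directions, 4 lower and 2 higher of 11 tested. The share of Cyp2c29 in the sum was 31.8% ± 11.2 in set 2 WT and 19.6% ± 3.45 in set 2 L2d13, and that of Cyp2c68 was 4.46% ± 0.849 and 9.52% ± 1.93 (SD, n = 6).

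The 8 Cyp2d genes lie in an array on chromosome 15 and made up 22.7% of all Cyp2 FPKM. Cyp2d9, a testosterone hydroxylase higher in male liver, was the most abundant at 926 to 1122 FPKM (median 1028) in set 2 WT, 642 to 1112 (905) in set 2 L2d13, 968 to 1082 (1027) in set 4 WT and 971 to 1222 (1143) in set 4 L2d13. The genotype differences of Cyp2d9 were -0.24 ± 0.11 (SE, adjusted p = 0.136) in set 2 and 0.14 ± 0.11 (SE, adjusted p = 0.423) in set 4. Cyp2d40 (chromosome 15, 82759833 to 82764183, minus strand) was at 66.5 to 119.9 FPKM (median 88.3) in set 2 WT, 44.3 to 93.9 (66.3) in set 2 L2d13, 63.0 to 105 (85.9) in set 4 WT and 38.6 to 65.1 (51.0) in set 4 L2d13. Cyp2d40 fell by 0.71 ± 0.18 in set 4 (adjusted p = 0.0102) and by 0.58 ± 0.13 over both sets (0.00116), and differed by -0.46 ± 0.18 (SE, adjusted p = 0.0806) in set 2. All 6 set 4 L2d13 libraries were below the set 4 WT mean, with overlap in range. In set 2 Cyp2d40 passed without L2d13 replicate 3, its group's highest value (adjusted p = 0.0327), or without WT replicate 3, its group's lowest (0.0459). The set 4 call was lost without the 6 libraries of higher FPKM per fragment (adjusted p = 0.234).

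Cyp2d10 (chromosome 15, 82402846 to 82407195, minus strand), which shares 40.5% of its transcript words with other genes, was at 586 to 858 FPKM (median 667) in set 2 WT, 525.4 to 635 (593) in set 2 L2d13, 563 to 649 (577) in set 4 WT and 491 to 590.5 (551) in set 4 L2d13. It fell over both sets by 0.17 ± 0.07 (adjusted p = 0.0454), in 12 of 12 libraries. Cyp2d26 (chromosome 15, 82790101 to 82794294, minus strand) was at 445 to 628 FPKM (median 548) in set 2 WT, 421 to 524 (457) in set 2 L2d13, 445 to 617 (504) in set 4 WT and 405 to 546 (431) in set 4 L2d13. It fell over both sets by 0.21 ± 0.08 (0.0494, limma), in 10 of 12 libraries. Both calls were at the threshold. That of Cyp2d10 was lost without any one of 15 libraries (adjusted p 0.0518 to 0.0817): set 2 L2d13 replicates 1, 2, 4, 5 and 6, set 4 L2d13 replicates 8, 10 and 12, set 2 WT replicates 1, 2, 4 and 6, and set 4 WT replicates 9, 10 and 11. That of Cyp2d26 was lost without any one of 17 (0.0541 to 0.0869): set 2 L2d13 replicates 1, 2, 3, 4 and 6, set 4 L2d13 replicates 7, 9, 10 and 12, set 2 WT replicates 1 to 5, and set 4 WT replicates 7, 8 and 10. With scaling to TPM the adjusted p was 0.422 and 0.436.

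Of the other tested Cyp2d genes, Cyp2d22 was at 43.6 to 127 FPKM, Cyp2d34 at 1.8 to 10.7 and Cyp2d12 at 0.66 to 3.38. Cyp2d34 differed by -0.72 ± 0.29 (SE, adjusted p = 0.0978) in set 4 and Cyp2d12 by -0.25 ± 0.12 (SE, adjusted p = 0.114) over both sets, and neither passed. Without set 4 WT replicate 8 the set 4 difference of Cyp2d34 passed (0.0335). Over both sets Cyp2d34 passed without set 2 L2d13 replicate 3 (0.0212) or set 2 WT replicate 3 (0.0482). Each of these libraries held the highest L2d13 or lowest WT value of Cyp2d34 in its group. All 7 tested Cyp2d differences over both sets were below 0, and 3 of them passed. Summed FPKM of the subfamily was 2473 ± 168 in set 2 WT, 2093 ± 193 in set 2 L2d13, 2317 ± 90.9 in set 4 WT and 2282 ± 79.0 in set 4 L2d13 (SD, n = 6).

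**Figure D3:**
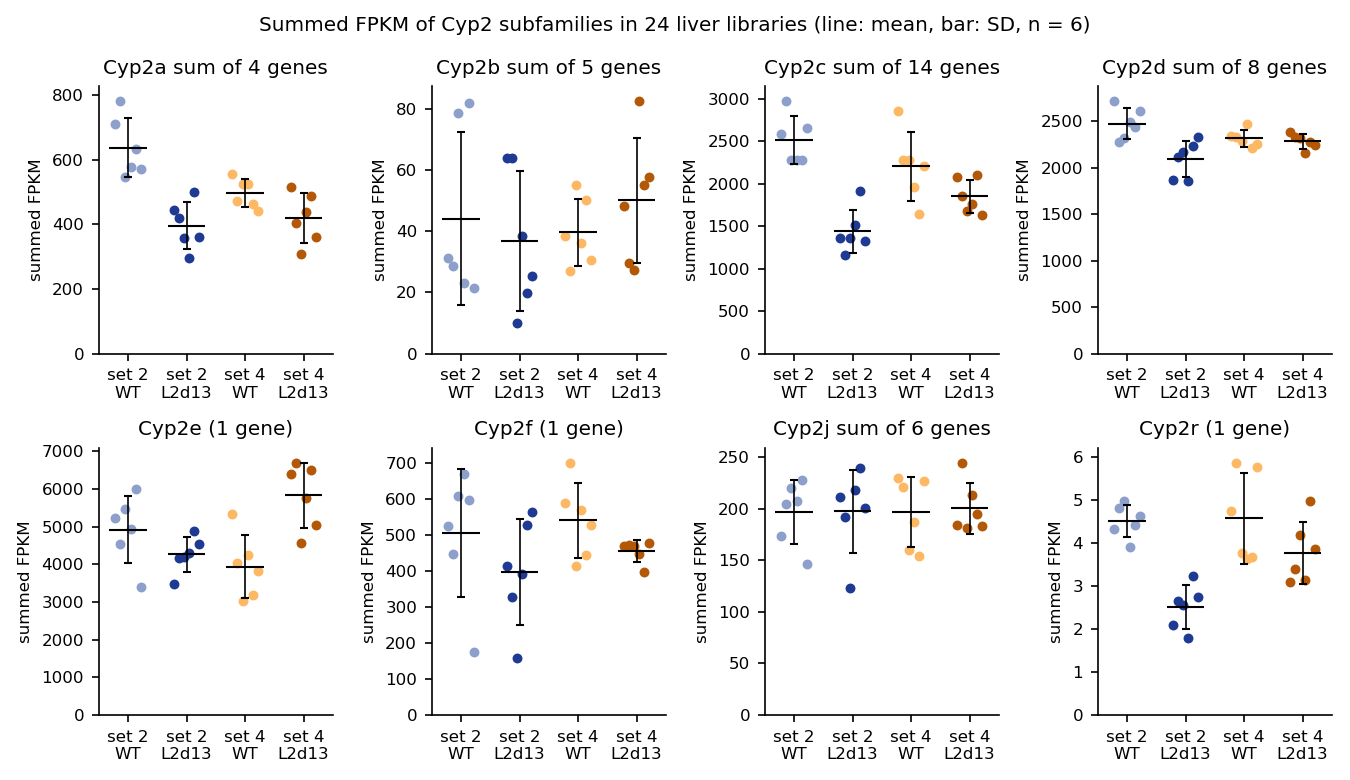
Summed FPKM of 8 subfamilies in each of the 24 libraries, with the mean as a line and the SD as a bar (n = 6 per group). Set 2 L2d13 lies below set 2 WT without overlap for Cyp2a, Cyp2c and Cyp2r, while Cyp2e is higher in set 4 L2d13 than in set 4 WT by mean, with overlap.

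Cyp2r1 (chromosome 7, 114549682 to 114562972, minus strand), which hydroxylates vitamin D in the first step of its activation, was low but even. It was at 3.91 to 4.97 FPKM (median 4.53) in set 2 WT, 1.78 to 3.23 (2.61) in set 2 L2d13, 3.62 to 5.87 (4.26) in set 4 WT and 3.09 to 4.97 (3.63) in set 4 L2d13, and the set 2 groups did not overlap. Cyp2r1 fell by 0.66 ± 0.12 in set 2 (adjusted p = 0.00123, 1.58-fold) and by 0.44 ± 0.10 over both sets (0.00147), with -0.22 ± 0.12 (SE, adjusted p = 0.251) in set 4. On the log2(FPKM + 1) scale the fold of so low a gene is understated.

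Cyp2f2, which activates naphthalene and marks periportal hepatocytes, was at 177 to 671 FPKM (median 562) in set 2 WT, 159 to 564 (403) in set 2 L2d13, 416 to 702 (549) in set 4 WT and 399 to 478 (470.4) in set 4 L2d13. Its differences of -0.33 ± 0.27 (SE, adjusted p = 0.435) in set 2 and -0.23 ± 0.27 (SE, adjusted p = 0.61) in set 4 did not pass. The lowest values, 159 and 177, were in set 2 L2d13 replicate 3 and set 2 WT replicate 6, the libraries with the highest cholangiocyte and stellate cell marker sums. With each library left out in turn, Cyp2f2 passed over both sets only without that WT library (adjusted p = 0.0453), its group's lowest value. The same 2 libraries had the lowest Cyp2j5, at 79.1 and 65.3 FPKM, and the highest Cyp2j9, at 22.1 and 51.3.

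Cyp2j5, an epoxygenase of arachidonic acid, led subfamily 2J with 84.4% of its FPKM. It was at 65.3 to 204 FPKM (median 181) in set 2 WT, 79.1 to 209 (185) in set 2 L2d13, 128 to 198 (174) in set 4 WT and 159 to 220.4 (161) in set 4 L2d13, with 0.10 ± 0.24 (SE, adjusted p = 0.816) in set 2 and 0.09 ± 0.24 (SE, adjusted p = 0.838) in set 4. Cyp2j6 lay between 11.5 and 26.5 FPKM and Cyp2j9 between 3.43 and 51.3. Cyp2j9 differed by -0.59 ± 0.30 (SE, adjusted p = 0.135) over both sets. Leaving out set 2 L2d13 replicate 3 alone gave Cyp2j9 an adjusted p of 0.0365 over both sets and 0.0485 in set 2. That library held its group's highest Cyp2j9, so leaving it out widens the difference. With set 2 WT replicate 6, the highest of all, left out too, the adjusted p was 0.0253 over both sets and 0.0729 in set 2 (limma). Those 2 libraries were chosen after the data were seen. The sum of the subfamily had nearly the same mean in the 4 groups, at 197 ± 30.7 in set 2 WT, 197 ± 40.1 in set 2 L2d13, 196 ± 33.9 in set 4 WT and 200.3 ± 24.7 in set 4 L2d13 (SD, n = 6). Cyp2u1, a fatty acid hydroxylase, was at 0.45 to 2.56 FPKM (median 1.63) in set 2 WT, 0.54 to 2.08 (1.73) in set 2 L2d13, 0.6 to 2.09 (1.18) in set 4 WT and 1.49 to 2.15 (1.77) in set 4 L2d13, with 0.01 ± 0.20 (SE, adjusted p = 0.976) in set 2 and 0.30 ± 0.20 (SE, adjusted p = 0.322) in set 4.

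Cyp2b10, the classical target of phenobarbital through CAR, made up 93.8% of Cyp2b FPKM. It was at 16.2 to 76.8 FPKM (median 27.1) in set 2 WT, 8.45 to 58.0 (30.9) in set 2 L2d13, 27.0 to 55.0 (37.2) in set 4 WT and 27.3 to 82.5 (51.3) in set 4 L2d13, with -0.37 ± 0.40 (SE, adjusted p = 0.568) in set 2 and 0.28 ± 0.40 (SE, adjusted p = 0.675) in set 4. The female-biased Cyp2b9 was at 0.09 to 6.62 FPKM (median 3.65) in set 2 WT, 0.15 to 26.2 (2.07) in set 2 L2d13, 0.09 to 0.49 (0.12) in set 4 WT and 0 to 0.71 (0.03) in set 4 L2d13, and its highest value, 26.2, was in set 2 L2d13 replicate 1. Its differences were 0.25 ± 0.56 (SE, adjusted p = 0.812) in set 2 and -0.11 ± 0.56 (SE, adjusted p = 0.919) in set 4.

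**Figure D4:**
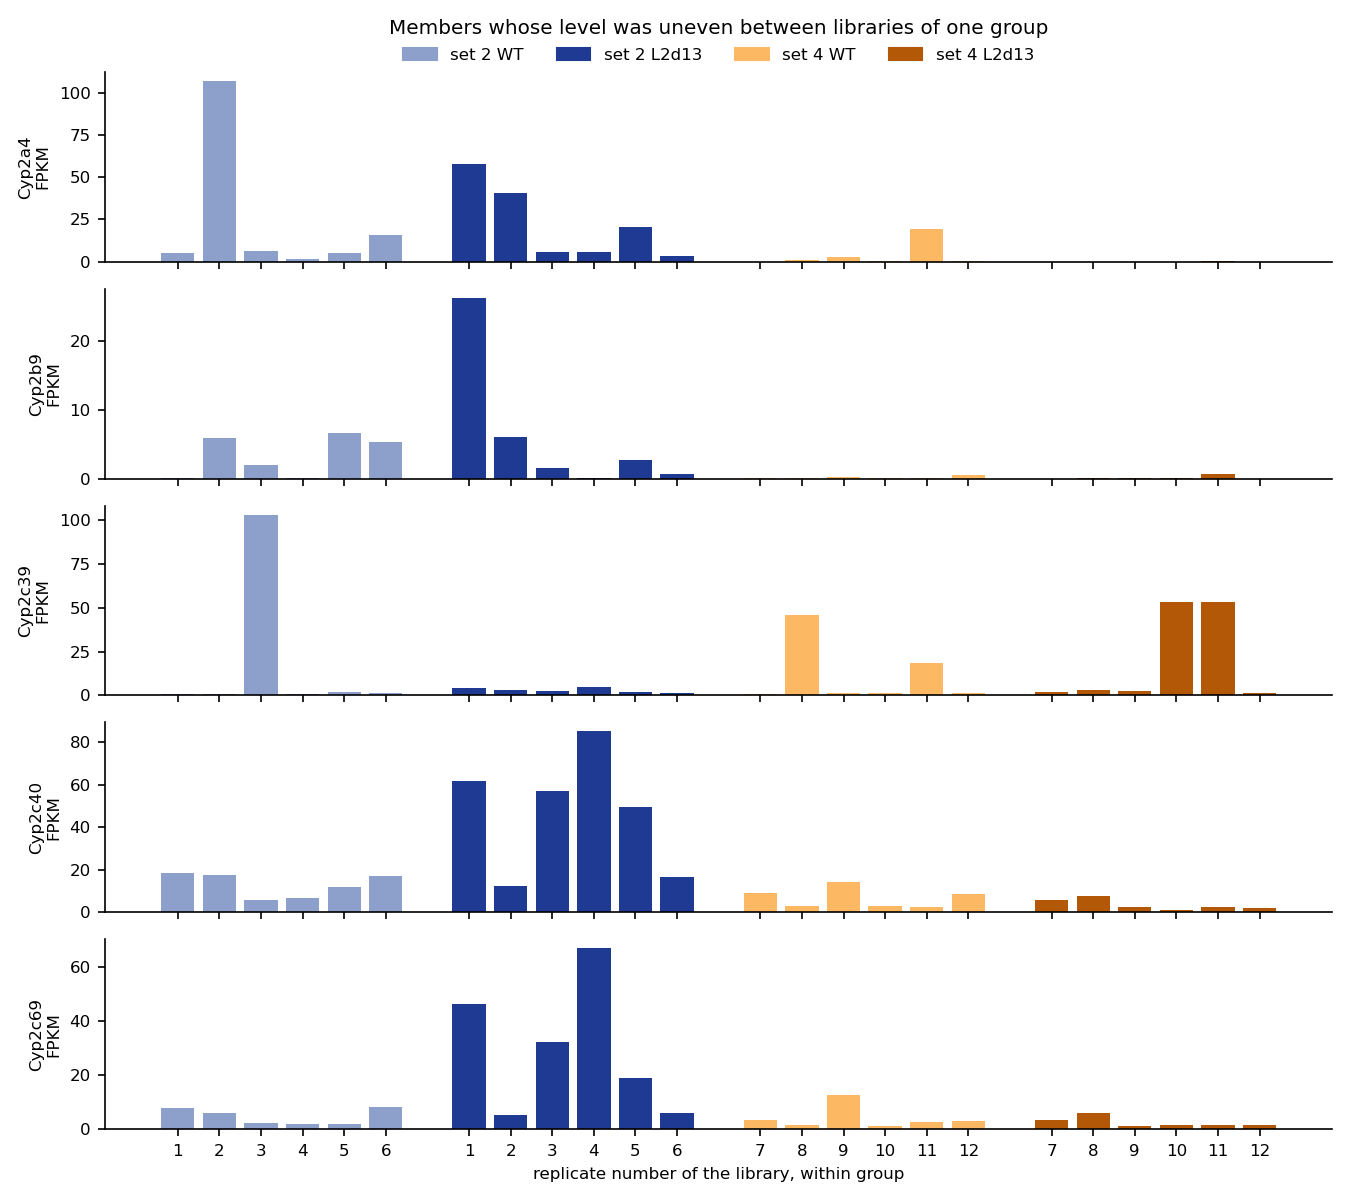
FPKM of 5 members in each of the 24 libraries, 1 bar per library, on linear axes that start at 0. Cyp2c40 and Cyp2c69 are high in the same set 2 L2d13 replicates (1, 3, 4 and 5), Cyp2a4 passes 10 FPKM in 6 libraries and Cyp2b9 in 1, and Cyp2c39 is high in 5 libraries spread over 3 groups.

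The 2 sets were also compared within each genotype. In WT, 0 of the 31 members were called in either direction between set 4 and set 2, where 0.0855% of all genes were higher and 0.104% lower. At an unadjusted p under 0.05, 7 members were lower and 0 higher (limma). All genes were not counted at that unadjusted threshold, so the 7 cannot be set against the shares above. By adjusted p, all genes split into 9 higher and 11 lower here and into 3 and 13 for the difference between genotype effects. With median-of-ratios scaling they split into 12 and 5, and 5 and 9. Among the 7 members, none of them called, were Cyp2a5 at -0.73 ± 0.24 (SE, adjusted p = 0.342) and Cyp2a4 at -1.92 ± 0.76 (SE, adjusted p = 0.491), set 4 minus set 2. Cyp2b9, which passed the filter on low values through set 2 libraries alone, was also among them, at -1.45 ± 0.56 (SE, adjusted p = 0.477). Cyp2a4 passed that filter mainly through set 2, where every library reached 1 FPKM.

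In L2d13, 5 members were lower in set 4 than in set 2 and 4 were higher, where 5.51% of all genes were lower and 0.551% higher. All genes split into 58 higher and 580 lower as deposited and into 130 and 171 with median-of-ratios scaling. Cyp2a4 fell by 3.73 ± 0.76 (adjusted p = 0.00677), from 3.26 to 57.5 FPKM in set 2 to at most 0.44 in set 4, without overlap. Cyp2c40 fell by 3.28 ± 0.46 (0.000297), also without overlap. Cyp2c69 fell by 2.79 ± 0.53 (adjusted p = 0.00425, limma), with 1 set 2 library below the highest of set 4. Cyp2c68 fell by 1.01 ± 0.21 (adjusted p = 0.00762), without overlap. These 4 calls held in each of the 9 alternatives and without any one library. Cyp2a22 fell by 0.66 ± 0.19 (adjusted p = 0.0371). Cyp2b9, at -1.81 ± 0.56 (SE, adjusted p = 0.0541), did not pass. It did without any one of set 2 L2d13 replicates 4 and 6 and set 2 WT replicates 1, 4 and 6 (adjusted p 0.0243 to 0.0488). It also passed with 0.1 in place of 1 added to the FPKM (0.0207), with TPM scaling (0.032) and with array weights (0.00832). All 8 libraries in which Cyp2b9 reached 1 FPKM were of set 2. It thus entered the tests through the set where it was high, so its lower level in set 4 was partly chosen by the filter. Cyp2a4 reached 1 FPKM in 15 libraries, every library of set 2 among them and none of set 4 L2d13. It too passed the filter mainly through set 2, and the same limit applies.

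Of the 4 that rose, Cyp2c29 rose by 0.97 ± 0.28 (SE, adjusted p = 0.0422), Cyp2c50 by 0.63 ± 0.17 (SE, adjusted p = 0.0267), Cyp2r1 by 0.44 ± 0.12 (SE, adjusted p = 0.0341) and Cyp2d9 by 0.37 ± 0.11 (SE, adjusted p = 0.0445). Each of these 4, and Cyp2a22, lost its call without single libraries of the 2 L2d13 groups or, for some, of WT. With TPM scaling Cyp2c29 (adjusted p = 0.0666), Cyp2r1 (0.0671) and Cyp2d9 (0.0914) lost it, and with no filter Cyp2c29 (0.0644), Cyp2d9 (0.0566) and Cyp2a22 (0.0572). Cyp2a22 also lost it with median-of-ratios scaling (0.144) and quantile normalization (0.131), and without the 6 libraries of higher FPKM per fragment Cyp2d9 (0.0565) and Cyp2a22 (0.0711) did. Cyp2c50 lost it without any one of set 2 L2d13 replicates 1, 2 and 4 and set 4 L2d13 replicates 7, 8 and 12 (adjusted p 0.0503 to 0.0741). Cyp2r1 lost it without set 2 L2d13 replicates 1, 3 and 4 or set 4 L2d13 replicates 9, 11 and 12 (0.056 to 0.0802). Cyp2a22 lost it without 9 libraries, set 2 L2d13 replicates 1 to 3 and set 4 L2d13 replicates 7 to 12 (0.0534 to 0.0866). Cyp2c29 lost it without 12, set 2 L2d13 replicates 1 to 4 and 6, set 4 L2d13 replicates 7 to 12 and set 4 WT replicate 12 (0.0506 to 0.106). Cyp2d9 lost it without 14 (0.05 to 0.117): set 2 L2d13 replicates 1 to 4, set 4 L2d13 replicates 7 to 10 and 12, set 2 WT replicate 4, and set 4 WT replicates 7, 9, 10 and 12.

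Members were also read by known traits, on lists chosen with results of these data known. Of 4 tested female-biased members (Cyp2a4, Cyp2b9, Cyp2c40 and Cyp2c69), 2 rose in set 2, 0 were called in set 4, and 3 were lower in set 4 than in set 2 within L2d13. The fifth, Cyp2b13, was under the filter and at most 0.64 FPKM. With 0.1 in place of 1 added to the FPKM, Cyp2a4 was called lower in set 4 (adjusted p = 0.0439, limma). The 2 that rose, Cyp2c40 and Cyp2c69, are close copies with shared fragments and the same highest libraries, so they are not independent observations. Of 6 pericentral members (Cyp2e1, Cyp2a5, Cyp2c29, Cyp2c37, Cyp2c50 and Cyp2c54), 4 fell in set 2, with a median of -1, and in set 4 Cyp2e1 rose and 0 fell, with a median of -0.21. Of all genes, 2.13% fell and 13.0% rose in set 2, with a median of 0.16, and 2.97% fell and 10.3% rose in set 4, with a median of 0.08. Between the sets within L2d13, 5.51% of all genes were lower. The periportal Cyp2f2 was not called in any comparison. Of the 3 tested CAR-inducible members (Cyp2b10, Cyp2c29 and Cyp2c37), Cyp2c29 fell in set 2 and 0 were called in set 4. The male-biased Cyp2d9 and Cyp2u1 were not called by genotype in either set.

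Partners of the P450 enzymes were read from lists of the same kind. Of 6 genes for electron transfer, 3 fell and 1 rose over both sets, where 4.86% and 25.9% of all genes did, with 2 lower and 1 higher in each set. Por, the reductase of all these enzymes, was at 185 ± 23.4 FPKM in set 2 WT, 255 ± 51.1 in set 2 L2d13, 137 ± 22 in set 4 WT and 304 ± 12 in set 4 L2d13 (SD, n = 6), and rose by 0.80 ± 0.12 over both sets (adjusted p = 2.33e-05, limma). Cyb5r3, the reductase of cytochrome b5, was at 162 ± 9.84, 84.7 ± 15.4, 189 ± 83.3 and 100 ± 14.9 in the same order and fell by 0.89 ± 0.12 (1.02e-05). Of 12 genes of heme synthesis and breakdown, 3 rose and 2 fell over both sets, where 25.9% of all genes rose and 4.86% fell. The share that rose was near that of all genes, and the share that fell, of 2 genes, was above it. Cpox, an enzyme of heme synthesis, rose by 0.44 ± 0.11 (adjusted p = 0.00544, limma). Of 15 tested transcription factors of hepatic P450 genes, 4 fell and 2 rose over both sets, where 4.86% of all genes fell and 25.9% rose. The share that fell was above that of all genes, and the share that rose was below it. Nr1i2, the receptor PXR, fell by 0.65 ± 0.13 (adjusted p = 0.000464, limma). Of 2 tested epoxide hydrolases, which act on products of Cyp2c and Cyp2j enzymes, Ephx2 rose by 0.45 ± 0.08 (adjusted p = 0.000176), and Ephx1 differed by -0.18 ± 0.14 (0.316, limma).

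The 15 members under the filter were Cyp2ab1, Cyp2b13, Cyp2b19, Cyp2b23, Cyp2c55, Cyp2c65, Cyp2c66, Cyp2d11, Cyp2g1, Cyp2j8, Cyp2j11, Cyp2j13, Cyp2s1, Cyp2t4 and Cyp2w1. Cyp2c55, with 5 libraries at 1 FPKM or more, was just outside the filter and had the highest mean of the 15, 0.859 FPKM. Its FPKM was 0.79 to 2.22 (median 1.19) in set 2 WT, 0.42 to 0.87 (0.685) in set 2 L2d13, 0.58 to 1.29 (0.795) in set 4 WT and 0.41 to 0.88 (0.515) in set 4 L2d13. Cyp2b9, with 8 such libraries, all of set 2, was just inside it, followed by Cyp2a4 with 15. Cyp2j8 reached 2.71 FPKM in 1 library and Cyp2j13 reached 1.6, and the other 12 were under 1 throughout. Cyp2c65 and Cyp2c66 were listed at 0 in all 12 L2d13 libraries and at no more than 0.06 and 0.04 FPKM in WT. Cyp2g1, known from olfactory mucosa, was at most 0.57, and Cyp2s1 and Cyp2w1, known from epithelia and gut, were at most 0.18 and 0.04.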

How the data were processed

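Whole liver RNA of 24 libraries, 6 in each of 4 groups given by the sample names, had been sequenced and quantified by the authors, who deposited FPKM per gene. The submitters' processing notes name HISAT, Bowtie2, RSEM and the build GRCm38.p5 without versions or order. No counts or depths were used, and an FPKM keeps no depth, so counting error is unknown. Gene IDs were matched to RefSeq symbols (18040 matched, 131 not). The members and all lists were chosen with earlier results of these data known. FPKM deposited by the authors were taken to log2(FPKM + 1), which understates the change of low genes, and genes at 1 FPKM or more in at least 6 libraries were tested. Differences over both sets came from limma 3.58.1 (R 4.3.3) with set and genotype as terms, all others from a fit of the 4 group means, with a mean trend and Benjamini-Hochberg adjustment over 10532 genes. Fits were tested on simulated data. A fold is 2 to the power of the log2 difference. Group ranges and medians are in FPKM. The rule for the genes named was: the most abundant member of each subfamily, each called member, each member of a subfamily with calls in both directions, and for each list the 2 genes with the smallest p, of which some are not reported here. The 24 libraries held no identical pair. Replicate numbers did not pair the samples: correlations of same-numbered WT and L2d13 deviations ran from -0.60 to 0.26 over 12 pairs. FPKM per fragment, from steps in 98 low genes, was 1.03 to 1.24 in 6 libraries and 0.963 to 1.04 in the other 18, so the ranges overlap. Those 6, chosen from earlier results (WT replicate 6 and L2d13 replicate 3 of set 2, with WT replicates 9 to 12 of set 4), were left out as an alternative. Other alternatives were a pseudocount of 0.1, no filter, median-of-ratios, quantile and TPM scaling, limma without trend or with array weights, a replicate block, leaving out each library and, chosen after seeing the data, leaving out 2 libraries. Transcript words of 50 bases came from GENCODE M21, and promoters from RefSeq on GRCm38.p6.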

Additional observations from a re-analysis of the deposited data

Results flagged for a closer look

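Dixon's criterion was applied on log2(FPKM + 1) to 124 groups of 6 libraries, counting each of the 31 tested members in each group. In 13 of them the highest or lowest library lay far from the other 5. Chance meets the criterion in about 1 in 20 groups of independent, normally spread values, and members read in the same libraries are not independent. Set 2 WT replicate 6 accounted for 4 of the 13. It held 176.52 FPKM of Cyp2f2 (median of the other 5, 596.8), 65.28 of Cyp2j5 (182.6), 51.3 of Cyp2j9 (7.54) and 534.59 of Cyp2c54 (253.3). Set 2 L2d13 replicate 3 accounted for 3, with 79.12 FPKM of Cyp2j5 (191.9), 22.13 of Cyp2j9 (3.69) and 10.48 of Cyp2d34 (3.74). These are the libraries with the highest cholangiocyte and stellate cell marker sums, and the part of those cells was not tested.

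The other 6 values were in 5 libraries. Cyp2c39 was at 103.05 FPKM in set 2 WT replicate 3 (median of the other 5, 1.05). Cyp2c69 was at 12.73 in set 4 WT replicate 9 (2.68), a library in which Cux2 was also above 1 FPKM. Set 4 L2d13 replicate 11 had low Cyp2f2, at 398.86 (471.2), and the highest Cyp2b9 of its group, at 0.71 (0.03). Cyp2a12 was low in set 4 WT replicate 8, at 245.01 (280.3), and Cyp2d12 was low in set 4 L2d13 replicate 10, at 0.66 (1.48).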

How the results depend on the processing

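The 29 called differences of single members gave 977 values under the alternatives, of which 864 kept their call, 113 lost it and 0 changed direction. Counts of called members, of 31, moved by more than 1.5 times as follows. Over both sets, quantile normalization gave 1 higher, Cyp2e1, among 1310 higher of all genes, and array weights gave 15 lower. In set 2, median-of-ratios scaling gave 1 higher and 10 lower, array weights gave 12 lower, and leaving out single libraries gave 1 to 2 higher. In set 4, 0 were higher with no filter, with median-of-ratios scaling and without the 6 libraries of higher FPKM per fragment, which left 1 lower, and array weights gave 2 higher and 7 lower. All genes called higher in set 4 numbered 927 with no filter, 617 with median-of-ratios scaling and 220 without those 6 libraries, in place of 1090. For the difference between sets, 1 was higher without the 2 libraries lowest in Cyp2f2, 3 with array weights, and 0 to 1 without single libraries. Between sets in WT, array weights gave 1 lower. Between sets in L2d13, 2 were higher with no filter, 1 with TPM scaling, 7 with array weights, and 0 to 6 without single libraries. All genes called higher there numbered 50 with no filter, 49 with TPM scaling and 215 with array weights, in place of 58. Array weights also raised the calls among all 10532 genes, to 4091 higher and 1417 lower over both sets (from 2730 and 512), 3174 and 601 in set 2 and 3518 and 1771 in set 4, so the rise was not limited to the members. The cause of the other moves was not tested.

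Same-numbered samples did not deviate together, so numbers pair nothing. With a replicate block, 6 members were lower over both sets, 1 was higher and 5 were lower in set 2, and 1 was higher and 0 were lower in set 4. Calls among all genes fell as well, to 2133 higher and 393 lower over both sets (from 2730 and 512). In set 2 they fell to 671 and 136 (from 1364 and 224), and in set 4 to 513 and 166 (from 1090 and 313). Lost with the block were Cyp2c29 (adjusted p = 0.0752), Cyp2d10 (0.122) and Cyp2d26 (0.0818) over both sets, Cyp2c23 (0.0744) and Cyp2c40 (0.057) in set 2, and Cyp2c23 (0.0594) and Cyp2d40 (0.0521) in set 4.

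Without the 2 libraries lowest in Cyp2f2, chosen after the data were seen, 12 members were lower over both sets and 0 higher, among 766 lower and 2959 higher of all genes. Cyp2f2 is one of the 12 and chose the libraries, so its call there says nothing. Without single libraries, 6 to 10 were lower over both sets, 6 to 9 in set 2 and 2 to 3 in set 4. FPKM without counts gives no counting error, so low members are the least certain. Near copies, most of all Cyp2c40, Cyp2c67, Cyp2c68 and Cyp2c69, depend on how shared fragments were divided.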
